A study of Mus musculus with 4 samples.

Results

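In mouse atherosclerotic plaques, 350 of 2431 deposited cells were chosen by their RNA for *Itih4*, *Wnt16*, *Fgl2*, *Mt1* and *Clu*, and they are called high-score cells here. Their score was the mean over these 5 genes of log2(value + 1), where the value is the unique molecular identifiers (UMIs) of a gene per 10000 UMIs of the cell. Before ranking, the 180 cells highest in the same mean over *C3*, *Lcn2*, *Cp*, *Saa3*, *Abi3bp*, *C4b* and *Cxcl12* were set aside. Those 180 cells count among the 2081 other plaque cells with which the high-score cells were compared. Because measured values selected the cells, the 5 score genes and the 7 genes of the first step are given as description and were left out of the counts of genes.

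Plaques had been dissected from the aorta and carotid arteries of C57Bl6/J mice on a high-fat diet and sequenced by droplet single-cell RNA-seq, with 1 library per genotype. Both genotypes lacked *Apoe* and carried Myh11-CreERt2 with the Confetti reporter, which labels smooth muscle cells and their progeny with fluorescent proteins after induction. The Trf2T188A/ApoE-/- mice also carried Sm22a-Trf2T188A, a mutant form of the telomere protein TRF2 expressed in arterial smooth muscle from a minimal *Sm22a* (*Tagln*) promoter, and the ApoE-/- mice did not. The series adds a library of wild type control and a library of SM22a-TRF2T188A carotid arteries taken 28 days after ligation, which brings it to 12790 cells in 4 libraries. How many mice went into a library is unknown. Before deposit the authors kept plaque clusters with Confetti reporter RNA and removed the rest, so shares refer to those clusters and not to whole plaques.

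Smooth muscle cells of the healthy artery wall express a contractile apparatus, and in plaques many of them lose it and turn to matrix-rich fibromyocyte-like and chondrocyte-like states. The genes that selected the cells have unlike roles. *Itih4* encodes an inter-alpha-trypsin inhibitor heavy chain best known from liver, *Wnt16* a secreted Wnt ligand, *Fgl2* a fibrinogen-like protein with a membrane-bound prothrombinase form, *Mt1* a zinc-binding metallothionein and *Clu* the extracellular chaperone clusterin.

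The ApoE-/- plaque library held 1502 cells with 37869934 UMIs and a median of 22765.5 UMIs per cell, and the Trf2T188A/ApoE-/- library held 929 cells with 24064570 UMIs and a median of 24377. No cell barcode was shared by the plaque libraries. High-score cells numbered 220 in the ApoE-/- library, which is 14.6% of its cells (Clopper-Pearson 95% interval 12.9 to 16.5), and 130 in the Trf2T188A/ApoE-/- library, which is 14.0% (11.8 to 16.4). The difference, Trf2T188A/ApoE-/- minus ApoE-/-, was -0.654 percentage points with an interval of -3.51 to 2.21. Over 7 alternatives the difference ran from -1.14 to 1.44, so its sign turned. Ranking within each library, which is among the 7, sets nearly the same share in both libraries beforehand and is no check of the difference. No difference in their share was detectable at this depth. The authors had kept cells with fewer genes in the Trf2T188A/ApoE-/- library than in the ApoE-/- library. The lowest number of genes in a cell was 1056 in the Trf2T188A/ApoE-/- library and 1531 in the ApoE-/- library. Whether this filter moved the shares or the genotype ratios was not tested. All intervals cover counting error only, cells are not replicates, and with 1 library per genotype no difference between genotypes has a replicate to check it against.

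High-score cells were deeper than the rest, with medians of 25441.5 UMIs (ApoE-/-) and 29192 UMIs (Trf2T188A/ApoE-/-) against 21924 and 23716 UMIs in the other cells. A Confetti reporter UMI was found in 91.4% and 90.8% of them, against 82.2% and 84.5% of the other cells. The cells set aside first made up 5.86% of the ApoE-/- library and 9.90% of the Trf2T188A/ApoE-/- library. RNA of the human *TRF2* transgene was hardly seen, with 1 UMI in 1 high-score cell and 9 UMIs in 8 other cells of the Trf2T188A/ApoE-/- library. Mice of the ApoE-/- library did not carry the transgene, and it had no UMI in their 220 high-score cells. By counting alone this leaves an upper limit of 1.36% for the share of cells with a UMI, taken as 3 cells of 220.

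The score formed a continuous range. Its median was 3.57 in the high-score cells and 1.97 in the other cells, and the highest cell reached 5.38. The lowest high-score cell and the best cell left out both scored 3.10. Within 0.1 of that value lay 52 high-score cells and 52 ranked cells that were not taken, and within 0.25 lay 108 and 162. The 10 cells just inside had on average 16.2 UMIs per 10000 of *Itih4*, 1.93 of *Wnt16*, 6.52 of *Fgl2*, 15.1 of *Mt1* and 19.5 of *Clu*. The 10 cells just outside had 12.9, 0.760, 8.69, 23.3 and 23.6 of the same genes. The edge therefore fell in the middle of a slope, and cells on its far side had more *Fgl2*, *Mt1* and *Clu*. Of the 180 cells set aside first, 74 (41.1%) scored at or above the lowest high-score cell.

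**Figure D1:**
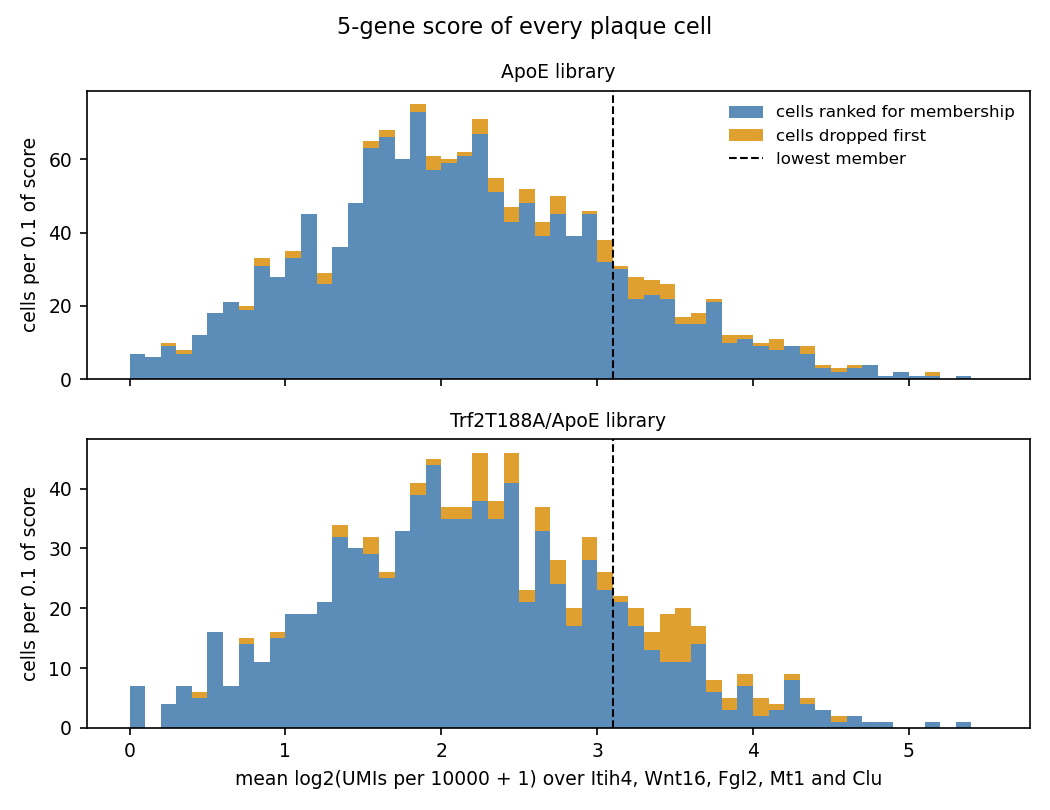
Number of cells per 0.1 of score in each plaque library, with the cells set aside first in orange and the lowest high-score cell as a dashed line at 3.10. In both libraries the counts slope down through the line without a gap, and many cells set aside first lie to its right.

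By selection the 5 genes were high. *Itih4* averaged 22.6 (ApoE-/-) and 20.3 (Trf2T188A/ApoE-/-) UMIs per 10000 against 4.42 and 4.57 in other cells, and *Wnt16* 3.03 and 2.21 against 0.486 and 0.559. *Fgl2* averaged 11.3 and 12.5 against 3.70 and 3.49, *Mt1* 40.3 and 47.5 against 11.5 and 11.8, and *Clu* 30.2 and 32.9 against 12.1 and 19.8. All 5 genes had a UMI in 282 high-score cells and 4 of them in the other 68, while 620 of the 2081 other cells also had all 5. *Wnt16* was the gene most often missing.

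Within the high-score cells the same score was reached by different genes. *Mt1* had the highest value of the 5 in 133 cells, *Clu* in 131, *Itih4* in 79, *Fgl2* in 7 and *Wnt16* in 0. Cells led by *Itih4* made up 26.4% of the ApoE-/- high-score cells and 16.2% of the Trf2T188A/ApoE-/- ones, cells led by *Mt1* 37.7% and 38.5%, and cells led by *Clu* 34.5% and 42.3%. This grouping was made after the values had been seen. *Vcam1*, an adhesion molecule, averaged 12.4 and 17.4 UMIs per 10000 in cells led by *Mt1*, 8.92 and 7.38 in cells led by *Clu*, and 3.29 and 3.58 in cells led by *Itih4*. *Sost*, an extracellular Wnt inhibitor, ran the other way, at 2.20 and 1.37 in cells led by *Mt1* and 4.69 and 8.94 in cells led by *Itih4*. *Myh11*, the smooth muscle myosin heavy chain, averaged 28.1 and 22.7 in the cells led by *Mt1* and 32.9 and 36.6 in those led by *Itih4*. In both libraries the cells led by *Mt1* thus had more *Vcam1* and less *Sost* and *Myh11* than the cells led by *Itih4*.

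Over all cells of a library the 10 pairs of score genes were positively rank-correlated, with Spearman's rho between 0.25 and 0.54 (median 0.34) in the ApoE-/- library and between 0.12 and 0.59 (median 0.27) in the Trf2T188A/ApoE-/- library. *Itih4* with *Fgl2* gave the highest value in each. After every cell was thinned to 8000 UMIs the medians were 0.29 and 0.23. Inside the high-score cells, which were selected on the sum of the genes, the medians were 0.01 and -0.04. These values describe cells of 1 library that share its depth, and no test was made.

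Compared with all other plaque cells, the high-score cells had few genes that stood higher in both libraries. A gene was counted when its log2 ratio of mean UMIs per 10000 plus 1 was at least 0.5 in each library, among genes with a UMI in at least 5% of plaque cells. Of 11987 genes, 18 (0.15%) were higher and 52 (0.434%) were lower. The 18 were *Mt2*, *Abi1*, *Gm12840*, *Net1*, *Fth1*, *Ctsb*, *2210407C18Rik*, *Ccn5*, *Cbr2*, *Mfap4*, *Ifi27l2a*, *Ifitm3*, *Gm13889*, *Aebp1*, *Cebpd*, *Olfr1033*, *Sod3* and *Sulf2*. Of the 15 highest, which were followed through the alternatives, 4 fell below 0.5 in at least 1 library under some alternative. *Ccn5* fell to 0.43 in the Trf2T188A/ApoE-/- library after thinning, and *Gm13889* to 0.41 in the ApoE-/- library with summed UMIs. In the Trf2T188A/ApoE-/- library the lowest ratio of *Gm13889* over the alternatives was also 0.41. *Ifi27l2a* and *Cebpd* are described with their groups. Of a list of 31 genes that the study itself had drawn from a plaque cluster marked by *Mt1*, *Mt2* and *Itih4*, 16 were among the 18 and 0 among the 52. Its median ratios were 0.56 and 0.57, beside -0.01 and -0.00 over the 11987 genes. The study chose that list on these samples, so it is not independent evidence.

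**Figure D2:**
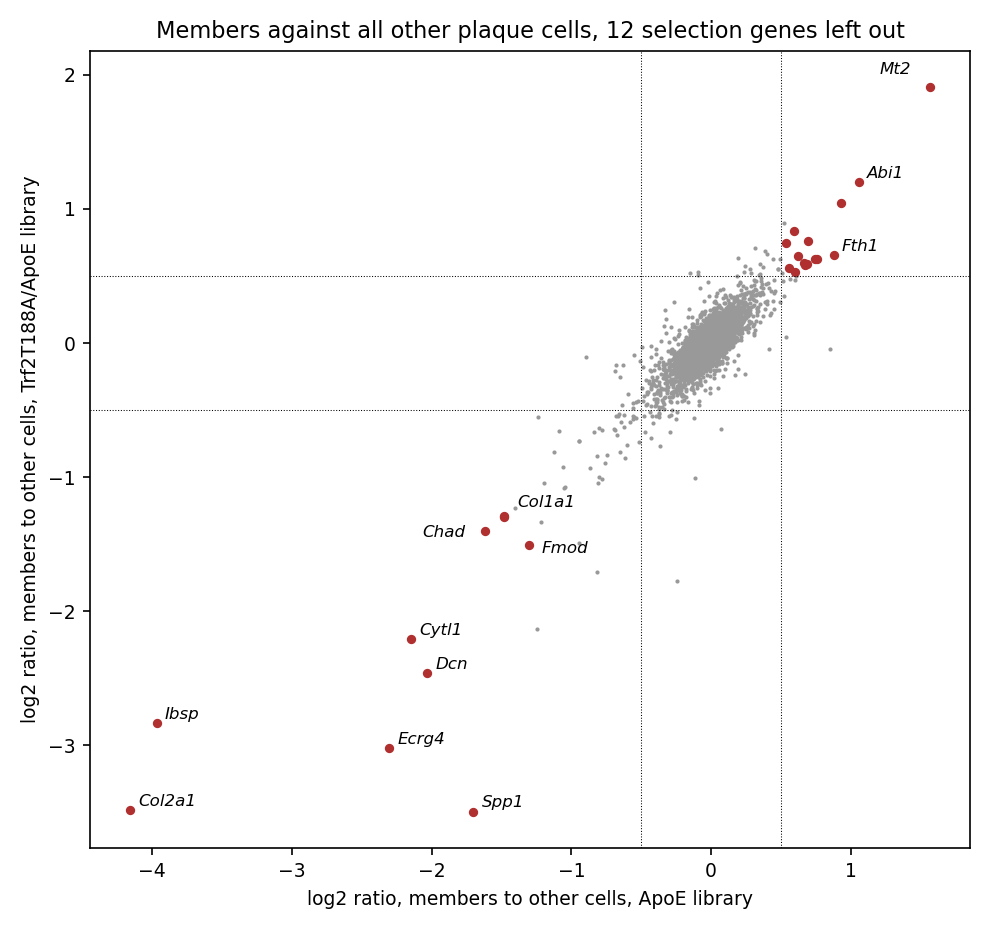
Log2 ratio of mean UMIs per 10000 plus 1, high-score cells (members) to other plaque cells, in the ApoE-/- library (horizontal) and the Trf2T188A/ApoE-/- library (vertical), 1 point per gene. Dotted lines mark ratios of 0.5 and -0.5, and red points are the 15 highest and 10 lowest genes. *Mt2* lies farthest up, and among the 10 lowest genes *Spp1*, *Col2a1* and *Ecrg4* lie farthest down.

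The gene farthest above other cells encodes a metal-binding protein. *Mt2*, the second metallothionein, averaged 10.7 UMIs per 10000 in the ApoE-/- and 15.3 in the Trf2T188A/ApoE-/- high-score cells, against 2.96 and 3.33 in other cells. The log2 ratios were 1.56 (95% counting interval 1.52 to 1.61) and 1.91 (1.86 to 1.961). *Mt2* was the gene with the highest ratio in both libraries. The lead came mostly from the cells led by *Mt1*, where *Mt2* averaged 20.3 and 34.0, against 6.18 and 3.83 in cells led by *Clu* and 3.34 and 2.81 in cells led by *Itih4*. It was tied closely to the score gene *Mt1*, with a rho over high-score cells of 0.80 and 0.90. Over all cells of a library the rho of *Mt2* with *Mt1* was 0.73 and 0.74. The ratio of *Mt2* is therefore in part a result of the selection. *Fth1*, the heavy chain of the iron store ferritin, averaged 186 and 172 against 101 and 109, with ratios of 0.88 and 0.66. Its partner *Ftl1*, the light chain, was at 3.88 and 4.93 against 5.50 and 6.16, with ratios of -0.415 and -0.27 that stay short of the limit. *Sod3*, the extracellular superoxide dismutase, was the other gene past the limit, at 11.7 and 12.3 against 7.91 and 8.25. Of the 10 tested genes of the metal and iron list, 3 were higher and 0 lower, and the list medians were 0.06 and 0.13. *Mtf1*, the transcription factor that responds to zinc, was at 0.162 and 0.184 against 0.163 and 0.150, and *Hmox1*, heme oxygenase, at 0.150 and 0.201 against 0.146 and 0.186. The difference thus lay in *Mt2*, *Fth1* and *Sod3* and not in the list as a whole.

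*Mt1* and *Mt2* are neighbours on mouse chromosome 8 in the GRCm38 build, *Mt2* at chr8:94172664-94173568 and *Mt1* at chr8:94179082-94180327, both on the plus strand with 5514 bases between them. Since they moved together across cells, the 250 bases before each RefSeq start (GRCm38.p6, plus strand) are shown. The *Mt1* window is chr8:94178839-94179088 and the *Mt2* window chr8:94172368-94172617. RefSeq starts differ from the gene starts given above, so the *Mt1* window runs past its gene start and the *Mt2* window ends short of it. Capitals mark TGCACNC or TGCGCNC on either strand, the core of the metal response element bound by MTF1. The *Mt1* window held 1 match and the *Mt2* window 3. Matches occurred in 21.4% of 32851 mouse promoter windows of this length, and in 5 of 17 windows of the 13 genes with a window among the score genes and the 18 higher genes. A match of letters does not show a site in use.
Mt1: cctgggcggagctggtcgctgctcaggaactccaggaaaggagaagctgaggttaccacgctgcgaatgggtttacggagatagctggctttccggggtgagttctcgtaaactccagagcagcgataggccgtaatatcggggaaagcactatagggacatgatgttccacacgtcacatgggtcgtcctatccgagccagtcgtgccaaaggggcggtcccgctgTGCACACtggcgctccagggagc
Mt2: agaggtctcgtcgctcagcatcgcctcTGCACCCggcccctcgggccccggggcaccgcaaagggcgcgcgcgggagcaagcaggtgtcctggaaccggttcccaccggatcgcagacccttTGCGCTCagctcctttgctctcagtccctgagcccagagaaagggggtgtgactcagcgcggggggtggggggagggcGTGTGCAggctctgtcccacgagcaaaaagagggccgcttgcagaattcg

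*Itih4* also has a close neighbour. *Itih3*, another heavy chain, lies 6219 bases away on chromosome 14, *Itih4* at chr14:30886476-30902353 on the plus strand and *Itih3* at chr14:30908572-30923760 on the minus strand. *Itih3* had a UMI in 38.2% of ApoE-/- and 42.3% of Trf2T188A/ApoE-/- high-score cells, against 14.8% and 15.1% of other cells. With cells thinned to 8000 UMIs the shares were 19.2% and 24.0% against 7.10% and 7.48%. In chondrocyte reference cells, which are defined later, it was found in 2 of 86 and 0 of 64 cells at median depths of 35592 and 32637 UMIs. Contractile reference cells had *Itih3* in 16.0% and 25.7% (thinned 8.12% and 8.33%). Across all cells of a library the rho of *Itih4* with *Itih3* was 0.25 and 0.26, after thinning 0.16 and 0.17, and within the high-score cells, which were selected on *Itih4*, 0.13 and 0.01. The 2 genes were thus linked weakly over all cells and hardly within the high-score cells. Heavy chains are transferred from the liver-type precursor onto hyaluronan by the product of *Tnfaip6*, which averaged 1.04 and 0.906 against 0.527 and 0.964. The light chain gene *Ambp* had no UMI in any high-score cell. *Has2*, the main hyaluronan synthase of mesenchymal cells, had no UMI in 220 and 130 cells, which leaves upper limits for the share of cells with a UMI of 1.36% and 2.31% (3 cells, about a one-sided 95% limit), while it was found in 5.38% and 5.76% of other cells and in 41.9% and 43.8% of chondrocyte reference cells. Thinned, *Has2* was in 2.09% and 2.64% of other cells and in 10 of 81 and 15 of 60 chondrocyte reference cells. Contractile reference cells also lacked it, with 0 of 237 and 0 of 113, so its absence was not particular to the high-score cells. Of 6 tested genes of the hyaluronan and inter-alpha-inhibitor list, 0 were higher and 0 lower, with medians of 0.05 and 0.02.

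Around *Wnt16*, other genes of the Wnt pathway did not move with it. Of 14 tested genes, 0 were higher and 1 was lower, with medians of -0.02 and -0.04. The lower gene was *Sost*, at 3.30 and 3.92 UMIs per 10000 against 6.51 and 6.64, although its median over cells was 1.99 against 4.05 in the ApoE-/- library and 1.94 against 1.69 in the Trf2T188A/ApoE-/- library. The target gene *Axin2* averaged 0.0246 and 0.0302 against 0.0321 and 0.0358. Around *Fgl2*, 0 of 9 tested genes of surface coagulation and fibrinolysis were higher or lower (medians -0.11 and -0.04), with tissue factor *F3* at 0.143 and 0.172 against 0.277 and 0.373. Around *Clu*, 0 of 9 tested chaperone and receptor genes were higher or lower, with medians of 0.17 and 0.18. *Hspb1*, a small heat shock protein, was the most abundant of them, at 15.1 and 16.3 against 11.96 and 12.5.

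Lysosomal and interferon-related genes contributed single members. *Ctsb*, which encodes cathepsin B, averaged 8.61 and 8.12 UMIs per 10000 against 4.69 and 4.90, with ratios of 0.76 and 0.63, and was the 1 higher gene of 10 tested lysosomal genes (medians 0.05 and 0.12). *Ifitm3*, a membrane protein that restricts virus entry, averaged 9.59 and 9.48 against 5.65 and 6.02, and *Ifi27l2a*, another interferon-induced gene, 1.77 and 1.74 against 0.725 and 0.819. They were the 2 higher genes of 17 tested interferon and antigen-presentation genes, whose medians were 0.08 and 0.08. The median of *Ifi27l2a* over high-score cells was 0 in both libraries, and in the difference of mean log2 values its ratios were 0.26 and 0.13, which ends the call. *Isg15* differed in direction between libraries, at 0.421 and 0.271 against 0.242 and 0.453. The class II gene *H2-Ab1* had a UMI in 22.7% and 25.4% of high-score cells against 7.64% and 10.9% of other cells, and in 3.80% and 6.19% of contractile reference cells, whose median depths were 22299 and 26472 UMIs. Thinned to 8000 UMIs, these shares were 11.3% and 16.0%, 4.26% and 6.598%, and 2.14% and 1.85%.

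Complement and acute-phase genes were close to the other cells after the first step had removed the cells richest in them. Of 11 tested genes outside that step, 0 were higher or lower in both libraries, with medians of 0.03 and 0.12. *Lrg1* was found in 38.2% and 48.5% of high-score cells, 12.8% and 19.9% of other cells and 3.38% and 6.19% of contractile reference cells, and after thinning in 24.4% and 27.2%, 6.93% and 9.38%, and 0.855% and 0.00%. Of the 7 genes of the first step, *C3* averaged 1.65 and 2.77 against 2.37 and 3.77, and *Lcn2* 1.76 and 5.45 against 2.23 and 5.23. In the cells set aside *C3* averaged 20.1 and 16.8 and *Lcn2* 21.4 and 25.3. *C4b* and *Cxcl12* were higher in the median high-score cell than in the median other cell, at 0.920 and 1.22 against 0 and 0, and 1.61 and 1.95 against 0.345 and 0.405. The first step thus left RNA of these genes in the high-score cells.

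Among regulators, *Cebpd*, a transcription factor induced by STAT3 signals, was the 1 higher gene of 13 tested genes of the STAT3 and NF-kB list, at 3.06 and 3.09 against 1.67 and 1.82. Thinned to 8000 UMIs its ratios were 0.44 and 0.45, short of the limit. Over 12 alternatives the lowest ratios of *Cebpd* were 0.43 and 0.35. The list medians were -0.02 and 0.12. Of 8 glucocorticoid-responsive genes 0 were higher or lower (medians -0.12 and -0.07), with *Fkbp5* at 0.0845 and 0.0957 against 0.133 and 0.113. *Abi1*, an adaptor of the actin-nucleating WAVE complex, was second after *Mt2*, at 7.51 and 10.1 against 3.09 and 3.83. *Aebp1* and *Mfap4*, which encode extracellular matrix proteins, averaged 19.2 and 24.1 against 13.0 and 13.9, and 6.58 and 7.92 against 4.02 and 4.01.

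Contractile genes were abundant. *Acta2*, smooth muscle actin, averaged 128 and 134 UMIs per 10000 against 111 and 97.4 in other cells, and *Myh11* 28.8 and 27.0 against 28.5 and 22.5. Of 12 tested contractile genes 0 were past 0.5 in both libraries, 10 were above 0 in both (as were 3307 of the 11987 genes), and the medians were 0.22 and 0.46. The lead over other cells rested partly on the first step, since with no cells set aside the medians were 0.02 and 0.18. In the difference of mean log2 values they were 0.63 and 0.96. Against the contractile reference, which was chosen by *Acta2* among other genes, the median over cells of *Acta2* was 126 and 127 to 219 and 241. *Myl9*, a myosin light chain not used to form the reference, had 33.8 and 31.3 to 49.6 and 47.6.

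Genes of matrix-rich states had lower means. Of 9 tested dedifferentiation genes 6 were lower (*Tnfrsf11b*, *Fmod*, *Lum*, *Dcn*, *Fn1* and *Col1a1*) and 0 higher, with medians of -0.87 and -1.04. Of 10 fibromyocyte genes 5 were lower (*Spp1*, *Ltbp2*, *Prg4*, *Col8a1* and *Mmp2*), with medians of -0.57 and -0.64, and of 10 chondrocyte genes 8 were lower, with medians of -1.36 and -1.35. The proteoglycan *Dcn* averaged 5.45 and 5.49 UMIs per 10000 against 25.4 and 34.8, and the cartilage collagen *Col2a1* 0.148 and 0.216 against 19.5 and 12.6. *Ecrg4*, a secreted peptide precursor, averaged 0.249 and 0.455 against 5.16 and 10.8. These lower means came from the upper tail of the other cells more than from the typical cell. The median over cells of *Dcn* was 0.776 and 1.11 against 0.793 and 1.75, and that of *Lum* 0.546 and 1.26 against 0.453 and 1.24. In the difference of mean log2 values the dedifferentiation medians were accordingly -0.20 and -0.33, and 6 genes in place of 52 were lower.

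To place the high-score cells, 3 reference groups were taken from the remaining cells by their own markers, and their marker levels are descriptions. They were 150 chondrocyte reference cells (highest in *Col2a1*, *Ibsp*, *Chad*, *Cytl1* and *Acan*), then 250 fibromyocyte reference cells (*Timp1*, *Thbs1*, *Spp1*, *Tnfrsf11b* and *Ltbp2*), then 350 contractile reference cells (*Myh11*, *Acta2*, *Cnn1* and *Tagln*). At or above the lowest score of each reference group lay 0, 28 (8%) and 46 (13.1%) of the high-score cells. On the contractile score their median was 5.51, between 5.25 in other cells and 6.22 in the contractile reference. On the fibromyocyte score it was 0.487, close to 0.464 in other cells and far from 2.84 in the reference.

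The name intermediate held for some genes and not for others. Genes not used to form these groups that lay between the contractile and the fibromyocyte reference included *Fn1*, with medians over cells of 8.01 and 9.64 against 5.33 and 4.98 (contractile) and 64.4 and 64.5 (fibromyocyte), and *Vcam1*, with 1.958 and 3.10 against 0 and 0, and 11.7 and 6.63. For both genes the high-score cells sat nearer the contractile end. *Mt2* and *Fth1* were outside the range of both references. *Mt2* had medians of 4.17 and 5.06 against 0.600 and 0.603 (contractile) and 1.24 and 1.34 (fibromyocyte), and *Fth1* 171 and 154 against 101 and 103, and 79.3 and 69.2. The cells are therefore called by their score and given no cell type name.

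**Figure D3:**
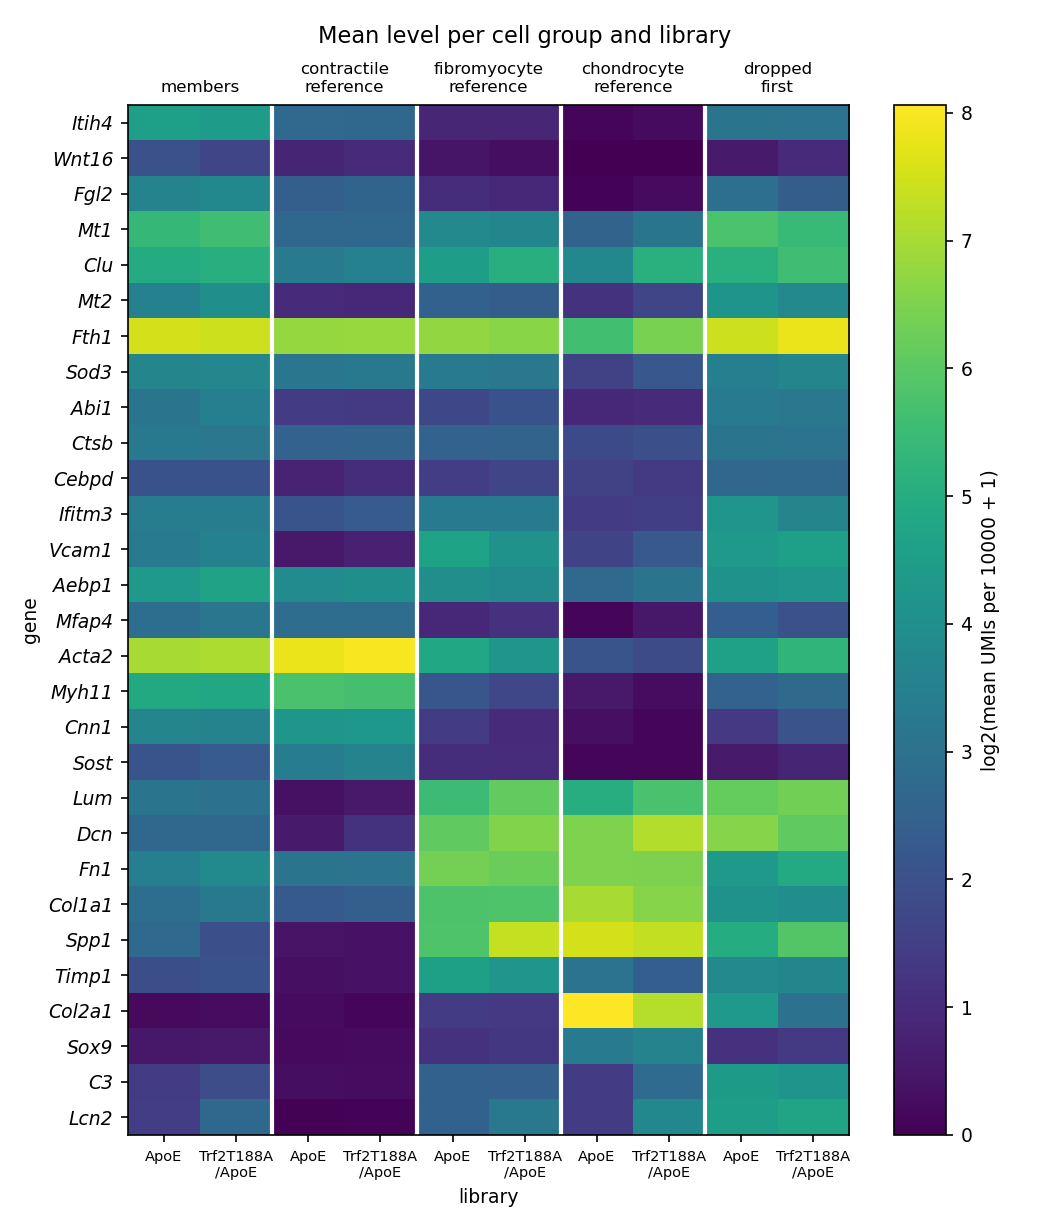
Mean level per gene, as log2(mean UMIs per 10000 + 1), in the high-score cells (members), the 3 reference groups and the cells set aside first, each split by library. *Acta2* and *Myh11* lie between the contractile and the fibromyocyte reference, and high *Mt1*, *Mt2*, *Fth1* and *Clu* are shared with the cells set aside first.

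Of 7 genes of progenitor-like states, 0 were higher and 1 was lower, with medians of -0.37 and -0.45. The lower gene was *Ly6a* (Sca1), with a UMI in 11.8% and 11.5% of high-score cells, 21.5% and 27.4% of other cells, 7.59% and 8.85% of contractile and 73.2% and 61.6% of fibromyocyte reference cells. Thinned shares were 6.103% and 1.60%, 14.8% and 19.5%, 4.27% and 3.70%, and 57.8% and 50.0%. *Vcam1* was the most abundant gene of the list, at 8.69 and 10.6 UMIs per 10000 against 5.96 and 6.92.

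The senescence list gave 0 higher and 0 lower of 8 tested genes, with medians of -0.06 and 0.01. *Cdkn2a*, which encodes p16, had a UMI in 2 of 220 and 1 of 130 high-score cells, and in none after thinning. Other cells had it in 3.67% and 6.88% (thinned 1.42% and 3.08%), fibromyocyte reference cells in 18.1% and 25.9% (thinned 7.41% and 10.2%), and contractile reference cells in 0 of 237 and 0 of 113. Whether these shares differ was not tested. *Mki67*, a marker of proliferating cells, was found in 2 and 0 high-score cells, and *Ccnd1*, cyclin D1, in 2 and 2, against 12.8% and 8.51% of other cells for *Ccnd1*. Contractile reference cells also had little *Ccnd1*, in 5 of 237 and 2 of 113 cells.

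Most markers of other cell types were at or near 0, in cells that the authors had already limited to reporter clusters, and *Pecam1* and *Gsn* were exceptions. Of 7 endothelial genes *Cdh5*, *Kdr* and *Tie1* had no UMI, and the summed level was 0.682 and 0.444 UMIs per 10000 against 0.508 and 0.618, nearly all of it *Pecam1* (0.664 and 0.435). *Pecam1* had a UMI in 51.4% and 42.3% of high-score cells, 39.0% and 35.3% of other cells and 31.6% and 22.1% of contractile reference cells. Thinned shares of *Pecam1* were 27.7% and 18.4%, 21.7% and 21.1%, and 14.5% and 8.33%. It was therefore widespread in the deposited cells, and its source was not tested. The 10 macrophage genes summed to 0.0720 and 0.0947 against 0.0952 and 0.235, with *Lyz2* the most abundant and *Adgre1* at 0. The 7 lymphocyte genes summed to 0.0135 and 0.00931 against 0.0194 and 0.0183, with *Cd3e*, *Cd3d* and *Trac* at 0 and *Trbc2* the most abundant. The 5 listed mesothelial genes and the 6 adipocyte and red cell genes had no UMI in high-score cells. Of 7 fibroblast genes *Gsn* was lower and the most abundant, and the sum was 6.306 and 6.305 against 11.5 and 10.8. The Schwann cell gene *Sox10* had no UMI. Few of these genes passed the detection limit for ratios. They were *Pecam1* (0.16 and -0.14), *Lyz2* (-0.01 and -0.03), *S100b* (-0.29 and -0.44) and the 7 fibroblast genes (medians -0.24 and -0.18, 0 higher and 1 lower).

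Genes that respond to tissue digestion were not higher. Of 16 immediate-early genes 0 were past 0.5 in both libraries, with medians of -0.37 and -0.18, and *Fos*, the most abundant, was at 25.1 and 30.9 UMIs per 10000 against 25.7 and 28.2. Of 13 mitochondrial genes 0 were higher or lower, with medians of 0.02 and 0.03. Mitochondrial genes made up 2.72% and 1.89% of the UMIs of high-score cells and 2.36% and 1.78% of those of other cells.

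Between genotypes, the question was whether mutant TRF2 went with a change inside the high-score cells. Of 10463 genes with a UMI in at least 10% of them, 14 (0.134%) were higher by at least 0.5 on the log2 scale in the Trf2T188A/ApoE-/- library and 3 (0.0287%) lower. The 14 were *Nfkb1*, *Ccn1*, *Kcnip4*, *Cxcl1*, *Cxcl2*, *Eln*, *Map3k5*, *Ccn2*, *Gadd45b*, *Gdf15*, *Icam1*, *Nfkbia*, *Ltbp2* and *Ier3*. The 3 were *Spp1*, *Serpina3n* and the ribosomal RNA gene *CT010467.1*. None of the 17 was past 0.5 in the same direction among other plaque cells. Whether the genotype ratios of the 2 sets of cells differ was not tested.

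*Icam1* and *Nfkbia*, 2 genes of NF-kB signalling, were among the highest. *Icam1*, an adhesion molecule induced by NF-kB, averaged 0.655 UMIs per 10000 in ApoE-/- and 2.13 in Trf2T188A/ApoE-/- high-score cells, a log2 ratio of 0.92 (0.81 to 1.03), beside 0.43 in other cells. Its upper quartile over cells was 0.405 and 1.38, and 54.2% of the level came from 10 of 220 cells and 71.9% from 10 of 130. *Nfkbia*, the NF-kB inhibitor that NF-kB itself induces, averaged 6.42 and 10.9, a ratio of 0.68 (0.62 to 0.75) beside 0.28. The medians over cells were also higher, at 2.76 and 6.18 for *Nfkbia* and 0 and 0.255 for *Icam1*. Of the 13 genes of the STAT3 and NF-kB list, 2 were higher and 0 lower, and the list median was 0.11, beside 0.00 over the 10463 genes. Both calls ended under an alternative, with *Icam1* at 0.39 in the difference of mean log2 values and *Nfkbia* at 0.49 after thinning.

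*Ccn2*, a matricellular growth factor, averaged 28.7 and 44.8 UMIs per 10000 (ratio 0.63, 0.59 to 0.66, beside 0.23 in other cells). *Eln*, which encodes elastin, averaged 14.6 and 23.6 (0.65, 0.61 to 0.70, beside 0.49), and *Ier3*, an early response gene, 2.27 and 4.03 (0.62, 0.53 to 0.71, beside 0.16). All 3 had higher medians over cells in the Trf2T188A/ApoE-/- library, 33.2 against 21.5 for *Ccn2*, 16.0 against 10.9 for *Eln* and 2.25 against 1.22 for *Ier3*. Thinning took the ratio of *Eln* to 0.36 and mean log2 values took that of *Ier3* to 0.47, which ended both calls. Of 16 immediate-early genes 2 were past 0.5 (*Ier3* and *Gadd45b*), 14 were above 0 (as were 5499 of the 10463 genes), and the median was 0.31 beside 0.14 in other cells. Some of these genes respond to tissue digestion, and the part of digestion in these ratios was not tested. The 13 mitochondrial genes had a median of -0.28 beside -0.37 in other cells, with *mt-Atp8* at 2.48 and 1.52 (-0.47). That shift was found in both sets of cells.

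The contractile list had a genotype median of -0.05 in high-score cells beside -0.24 in other cells, and the dedifferentiation list 0.07 beside 0.23. 0 genes of either list were past 0.5 in high-score cells. The score genes were held alike by the selection, which used 1 limit for both libraries, and their ratios are description. *Itih4* had a ratio of -0.15, *Wnt16* -0.33, *Fgl2* 0.14, *Mt1* 0.23 and *Clu* 0.12, while *Clu* had 0.67 in other cells. *Mt2* was at 0.47 beside 0.13. Endogenous *Terf2*, the gene of TRF2, averaged 0.198 and 0.159.

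*Spp1*, which encodes osteopontin, was lower in Trf2T188A/ApoE-/- high-score cells (5.77 and 2.90 UMIs per 10000, ratio -0.80, -0.87 to -0.72) and higher in the other cells of that library (21.0 and 42.9, ratio 0.997). In the high-score cells 88.0% and 84.8% of its level came from 10 cells, and the medians over cells were 0.279 and 0.361, so the lower mean did not describe the typical cell. In the difference of mean log2 values the direction turned, with a ratio of 0.0402. *Serpina3n*, an acute-phase protease inhibitor, averaged 4.92 and 2.98 (-0.57), with medians of 1.30 and 0.474, beside 0.33 in other cells. In cells led by *Clu* its means were 8.36 and 2.91, in cells led by *Itih4* 3.08 and 0.992, and in cells led by *Mt1* 3.17 and 3.86, and whether these groups differ was not tested. *CT010467.1* averaged 271 and 181 (-0.58), and *Rbp4*, a retinol carrier, 3.67 and 2.32 (-0.49). Several genotype calls ended under an alternative. Thinned to 8000 UMIs, *Eln* was at 0.36, *Nfkbia* at 0.49 and *CT010467.1* at -0.49, and in the difference of mean log2 values *Icam1* was at 0.39 and *Ier3* at 0.47. With no cells set aside first *Serpina3n* was at -0.10.

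**Figure D4:**
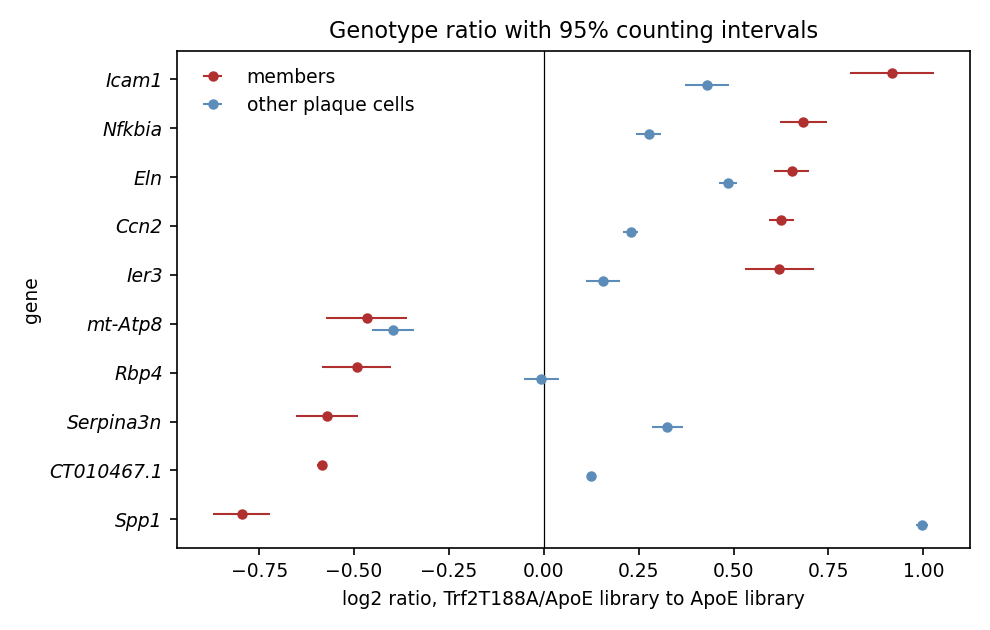
Log2 ratio of the Trf2T188A/ApoE-/- to the ApoE-/- library with 95% counting intervals, in high-score cells (members, red) and other plaque cells (blue), for the 5 highest and 5 lowest genes. *Spp1*, *Serpina3n* and *CT010467.1* lie on opposite sides of 0 in the 2 sets of cells.

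The ligation libraries, which had no part in choosing the cells, showed how far the score occurs in ligated arteries. After cells with a UMI of *Pecam1*, *Cdh5* or *Ptprc* were left out, 4439 control and 4574 SM22a-TRF2T188A cells remained, with median scores of 1.39 and 1.57. Of the control cells 1 (0.0225%) reached the lowest plaque high-score value, and of the SM22a-TRF2T188A cells 57 (1.25%). Thinned to 5000 UMIs, with the plaque limit recomputed at 3.003, the counts were 2 of 4149 (0.0482%, interval 0.00584 to 0.174) and 79 of 4439 (1.78%, 1.41 to 2.21). The plaque cells had not been filtered on these 3 genes. With no ligation cells left out, 1 of 4967 (0.0201%) and 64 of 5392 (1.19%) reached the plaque limit at full depth, and 1 of 4642 (0.0215%) and 82 of 5238 (1.57%) in a separate random thinning, whose draw differs from the first by chance, and with plaque cells filtered too, high-score cells were 12.2% and 13.9% of thinned plaque cells. Under either rule cells with so high a score were rare in ligated arteries and more frequent in the SM22a-TRF2T188A library at equal depth, in 1 library each. *Itih4* averaged 0.93 UMIs per 10000 in the control and 1.79 in the SM22a-TRF2T188A library, and *Wnt16* 0.54 and 1.20.

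In each ligation library the top-scoring cells, the same share as in plaques (639 and 659 cells), were set against the rest. Of 9710 genes 1 (0.0103%) was higher by 0.5 in both and 2 (0.0206%) lower. The higher gene was *Mt2*, with ratios of 0.58 and 0.56, and it was the 1 of the 18 plaque genes (5.56%) that passed, while 13 of the 18 had ratios above 0 in both libraries, as did 20.7% of the 9710 genes. *Fth1*, high in plaque high-score cells, had ratios of 0.02 and -0.47. Of the 40 lower plaque genes that could be tested, 1 (*Spp1*) was lower by 0.5 in both, and 26 were below 0 in both, as were 33.4% of the 9710 genes. Among the 10 pairs of score genes rho ran from -0.04 to 0.09 (median 0.04) in the control and from -0.08 to 0.25 (median 0.11) in the SM22a-TRF2T188A library. *Mt2* followed the score gene *Mt1* there too (rho 0.34 and 0.39), so its ratio is in part a result of the selection.

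These results rest on 1 library per genotype from an unknown number of mice. A difference between genotypes therefore cannot be told apart from a difference between animals, dissections, cell filters or runs. The high-score cells are a slice of a continuous range, chosen by RNA of the genes that describe them, and the score has no gap at the edge. The transgene acts through a *Tagln* promoter, and its RNA was too rare to tell which cells expressed it. Spliced variants, protein and position in the plaque were not measured, and no comparison with disease-free artery was possible.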

How the data were processed

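The signal values are UMI counts per gene and cell, which the authors made for plaques with Cell Ranger 7.0.0 (GRCm38) and deposited after filtering cells in Seurat 4.3.0. An earlier Cell Ranger was used for ligated arteries. UMI counts were recovered here by taking the smallest nonzero value of a cell as a single UMI. In each of the 4 libraries 100% of the recovered counts were whole within 0.01. Recovered counts were scaled to 10000 UMIs per cell again. Work was done in Python 3.11.15 with numpy 2.4.6, scipy 1.17.1, pandas 2.3.3, matplotlib 3.10.9 and scanpy 1.11.5 for Scrublet. Positions came from GENCODE M21.

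Genes were named by rule: the 5 score and 7 first-step genes, the 15 highest and 10 lowest ratios in both libraries, the 5 highest and 5 lowest genotype ratios, *Terf2*, and genes of the lists. Cells and lists were chosen with earlier results of these data known. Other genes were named after values were seen.

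Doublets were not removed. Scrublet called 0 and 3 cells. The code was tested on simulated data. Alternatives changed the number of cells, the first step, ranking, depth, reporter, doublets, pseudocount, ratio and comparison cells.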

Additional observations from a re-analysis of the deposited data

Results flagged for a closer look

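Of the 17 genes past 0.5 between genotypes in high-score cells, 4 had a genotype log2 ratio of the opposite sign in other plaque cells. Genes short of 0.5 were not counted. High-score minus other cells, the genotype log2 ratio was 0.68 for *Ccn1*, -1.79 for *Spp1*, -0.90 for *Serpina3n* and -0.71 for *CT010467.1*. Whether these differences exceed what animals of 1 genotype show was not tested, and the difference was not tested.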

How the results depend on the processing

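No paired analysis was possible because each genotype had 1 library. Where a value moved, the cause was not tested.

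Higher genes numbered 18, against 12 with 450 cells, 39 with no cells dropped first, 74 with pseudocount 0.1 and 42 with the difference of mean log2 values. Lower genes numbered 52, against 340 with pseudocount 0.1 and 6 with mean log2 values. Genes past 0.5 between genotypes numbered 17, against 14 with none dropped and 207 with pseudocount 0.1.

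The contractile median was 0.22 (ApoE-/-), against 0.0165 with no cells dropped, 0.11 in reporter cells, 0.63 with mean log2 values and 0.34 with summed UMIs. In Trf2T188A/ApoE-/- it was 0.46, against 0.33 with 250 cells, 0.18 with none dropped, 0.96 with mean log2 values and 0.35 when the 180 dropped cells left the comparison.

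The dedifferentiation median was -0.87 (ApoE-/-), against -0.75 with 250 cells, -0.998 with 450, -0.71 with none dropped, -1.002 after thinning, -1.26 with pseudocount 0.1, -0.20 with mean log2 values and -1.10 with summed UMIs. In Trf2T188A/ApoE-/- it was -1.04, against -1.18 with 450 cells, -0.81 with none dropped, -1.20 after thinning, -1.16 without the 5% highest Scrublet scores, -1.34 with pseudocount 0.1 and -0.33 with mean log2 values.

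The *Spp1* genotype ratio, -0.80, ran from -1.72 to 0.0402 over 11 alternatives, and the value of 0.0402 came with mean log2 values. The *Icam1* genotype ratio, 0.92, ran from 0.39 to 1.56.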
